A study of Mus musculus with 44 samples.

Results

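Among microglia sorted from 5xFAD females, Apoe RPKM was higher in every library numbered 18 to 34, apart from library 22, than in every library numbered 1 to 17. The libraries described here are the 21 5xFAD libraries of the deposited female table, of 44 libraries in the series. They were divided by library number into 11 low-numbered libraries (1 to 17) and 10 high-numbered ones (18 to 34, without library 22). The division was chosen by the measured Apoe RPKM, at the step in it, so the values on either side of it are given as a description, without a test. RPKM is a read count scaled to gene length and to library depth, here with the authors' scaling.

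Apoe encodes apolipoprotein E, the main lipid carrier of the brain, which astrocytes make at rest and which microglia make when they meet amyloid, dying neurons or myelin debris. In amyloid models, microglia near plaques enter a state often called disease-associated, with more Apoe, Cst7, Lpl, Itgax and Clec7a and less of the homeostatic genes P2ry12, Tmem119 and Cx3cr1. The receptor Trem2 and its adaptor Tyrobp are needed for the later stage of that state, and lysosomal hydrolases rise with it.

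All libraries were labelled as microglia sorted from the brains of 8-month-old mice by flow cytometry for CD11b and CD45, and were made from poly(A) RNA. The 5xFAD line is a transgenic mouse model of amyloid deposition in Alzheimer's disease, with transgenes driven by a neuronal (Thy1) promoter, so the sorted cells themselves are not the intended site of the transgenes. The low-numbered side held 4 libraries of 5xFAD;Trem2+/+, 4 of 5xFAD;Trem2T96K/+ and 3 of 5xFAD;Trem2T96K/T96K females. The high-numbered side held 2, 4 and 4 of the same genotypes, where T96K is a missense variant of Trem2. Females without the 5xFAD transgenes (NonTg;Trem2+/+) gave 2 low-numbered and 3 high-numbered libraries, and a separately scaled male table held 17 5xFAD libraries of the same 3 Trem2 genotypes. The labels do not say what the number stands for, nor outright that each number is 1 mouse, so p-values measure the spread between libraries. In bulk RNA from sorted cells, fewer cells of a type and less RNA per cell cannot be told apart.

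Several libraries stood apart. Library 22, labelled a 5xFAD;Trem2T96K/+ female, had 29.3 RPKM summed over 4 Y-linked genes and 0.416 RPKM of Xist. The 26 other female libraries held 0 to 0.130 RPKM and 16.9 to 147 RPKM. Library 22 is on neither side of the division and is used only where it is named. Recovered depth was 7.73 to 12.4 M reads in low-numbered 5xFAD females, 11.1 to 15.3 M reads in libraries 18 to 23 and 26.5 to 42.4 M reads in libraries 25 to 34. Depth ranges overlapped between libraries 1 to 17 and 18 to 23, and libraries 25 to 34 were deeper than all of these. The authors' scaling factor was 0.939 to 1.09 on the low-numbered side and 0.800 to 0.944 on the high-numbered side. The part of depth and scaling in the Apoe values was not tested. None of 10 defining microglial markers was at 0 throughout the 21 libraries, and their summed level was 7975 to 13447 RPKM in libraries 1 to 17, 12502 to 16958 in libraries 18 to 23 and 6949 to 11870 in libraries 25 to 34. T and NK cell markers summed to at most 9.31 RPKM in these 21 libraries.

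The upstream sequences of Apoe and of Glb1, the lysosomal beta-galactosidase gene whose level followed Apoe most closely, are shown because these genes moved together. Each is the 250 bases before a RefSeq start in GRCm38.p6, 5′ to 3′ on the gene's strand, with capitals marking CACGTG, the core of the element bound by TFEB-family lysosomal regulators. The Apoe sequence lies at chr7:19699189-19699438 on the minus strand, and the Glb1 sequence at chr9:114400828-114401077 on the plus strand.
Apoe: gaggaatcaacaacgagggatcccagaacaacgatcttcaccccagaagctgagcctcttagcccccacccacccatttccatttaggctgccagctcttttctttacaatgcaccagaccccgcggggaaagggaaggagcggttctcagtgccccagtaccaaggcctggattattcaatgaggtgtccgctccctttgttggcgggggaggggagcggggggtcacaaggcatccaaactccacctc
Glb1: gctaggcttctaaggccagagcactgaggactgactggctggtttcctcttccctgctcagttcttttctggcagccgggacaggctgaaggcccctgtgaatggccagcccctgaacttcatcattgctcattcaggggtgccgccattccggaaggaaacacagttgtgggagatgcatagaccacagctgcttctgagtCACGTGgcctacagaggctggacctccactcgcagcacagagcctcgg
CACGTG occurred 1 time in the Glb1 window and not in the Apoe window, and 6.02% of 32851 RefSeq promoters of this length held it. The nuclear receptor element AGGTCA, which shares no overlap with CACGTG and was likewise sought on both strands, was in 14% of them and in neither window. The other 2 Apoe starts listed by RefSeq, and the windows of Dlgap4, H2-Oa, Hexa, Lgals3bp, Os9 and Cst7, also held none of these letters. CACGTG was thus found in 1 of the 8 genes examined, too few to set against the 6.02%, and nothing is read from it. The longer CLEAR element, which contains CACGTG, was in none of these windows. In the build of the deposited tables, mm9, Apoe lies at chr7:20281458-20284515 on the minus strand and Glb1 at chr9:114310194-114383495 on the plus strand.

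In low-numbered 5xFAD females, Apoe RPKM was lowest at 505 and highest at 2275, with a median of 859. In high-numbered ones it was lowest at 4991 and highest at 15730, with a median of 7336. The ranges did not overlap, because the rule required it, and the neighbours on either side of the division were library 17 at 2275 RPKM and library 18 at 8897 RPKM. On the log2(RPKM + 1) scale with Trem2 genotype as a covariate, the difference was 2.94 (SE 0.32), a 7.69-fold higher level. By the same requirement, the step was present in each genotype. In 5xFAD;Trem2+/+ females the 4 low-numbered libraries held 762 to 1387 RPKM and the 2 high-numbered ones 5330 and 15221 RPKM. In 5xFAD;Trem2T96K/+ females the values were 505 to 2275 RPKM in 4 libraries and 6058 to 12949 RPKM in 4. In 5xFAD;Trem2T96K/T96K females they were 622 to 1783 RPKM in 3 libraries and 4991 to 15730 RPKM in 4. Library 22 lay between numbers that were all high and held 889 RPKM, within the low-numbered range.

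**Figure D1:**
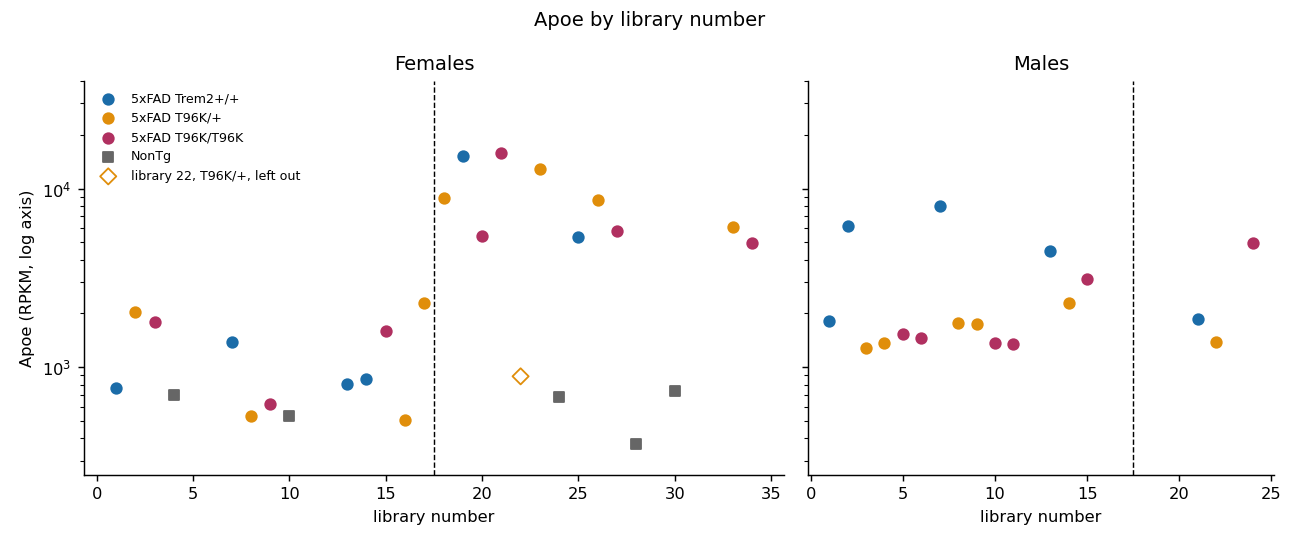
Apoe RPKM (log axis) against library number in the female and the male table, each point 1 library coloured by genotype. The 5xFAD females numbered 18 to 34 lie at 4991 RPKM and above apart from library 22 at 889 RPKM, and the NonTg females stay at 735 RPKM and below at either end.

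NonTg females, which the rule did not use, had no such step. Their Apoe RPKM was 702 and 534 in the low-numbered libraries 4 and 10, and 679, 374 and 735 in the high-numbered libraries 24, 28 and 30. The groups overlapped, and the log2 difference was -0.10 (SE 0.66; limma adjusted p = 1; exact two-sided permutation p = 0.9, where 0.1 is the smallest that 2 against 3 libraries can give). Across all genes, limma called 0 of 14591 between these groups (0% at an adjusted p under 0.05), with 609 genes (4.17%) at an unadjusted p under 0.05 and 0 calls by limma voom on recovered reads. Leaving out library 24 gave 16 calls, and the Apoe difference was 0.10 without library 4 and 0.21 without library 28.

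The male table could not show a difference by number. Over 13845 tested genes, the log2 group means of male libraries 21, 22 and 24 and of libraries 1 to 15 differed by a nearly constant 0.03, and 89.5% of genes lay within 0.05 of that median, although the median SE of such a difference was 0.145. In the 21 females, 20.6% of genes lay within 0.05 of their median difference, and the median SE was 0.135. The sources used here name no adjustment that would make the male blocks equal. Apoe in males 21, 22 and 24 was 1859, 1389 and 4952 RPKM, within the 1276 to 7960 RPKM (median 1762) of the 14 males numbered 1 to 15. With genotype as a covariate the log2 difference was 0.04, or -0.75 without male library 24. Without the covariate it was 0.09 (exact two-sided permutation p = 0.866). In the fit with the covariate 26 genes were called lower and 0 higher by limma (0.188% and 0%; 139 genes at an unadjusted p under 0.05), values that carry the same limit. By limma voom 69 genes were lower, and without male library 24 or 22 limma called 9 or 10 genes.

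**Figure D2:**
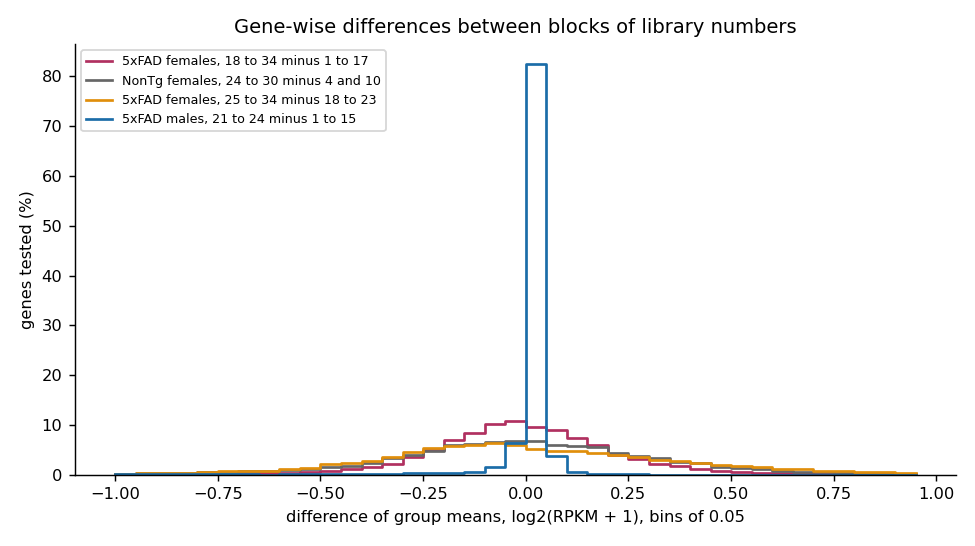
Share of genes (percent, bins of 0.05) by the difference of log2(RPKM + 1) group means in 4 comparisons of library numbers. The male genes pile up beside 0, with 82.4% of them between 0 and 0.05, whereas the 3 female comparisons spread out.

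Apoe lies in a cluster of lipoprotein genes, and its neighbours differed less. Apoc1, an exchangeable apolipoprotein gene just downstream, ranged from 0.167 to 6.44 RPKM (median 3.51) on the low-numbered side and from 3.89 to 26.1 RPKM (median 9.45) on the high-numbered side, a difference of 1.43 (SE 0.32). These ranges overlapped. Apoc2, the activator of lipoprotein lipase, differed by 0.71 (SE 0.26) and Apoc4 by 0.03 (SE 0.37). Over the 9 tested genes of the cluster the median difference was 0.16, beside -0.01 over all 14591 genes.

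Across the table, 208 genes had an adjusted p under 0.05 with a higher level on the high-numbered side (1.43% of 14591) and 36 with a lower one (0.247%). As the division was drawn on these libraries, the counts describe it and support nothing. Leaving out library 8, 15, 16, 19, 23 or 26 brought the total of 244 down to between 111 and 126. In 20 genes (0.137%) every high-numbered library lay above every low-numbered one, and in 1 gene (0.00685%) below. The 20 genes, named after their values were seen, were Apoe, Cst7, Glb1, Hexa, Gm2a, Ctsa, Ctsb, Ctsd, Ctsz, Npc2, Pld3, H2-Oa, Lrpap1, Sdf4, Tmed3, Dgkz, Usp30, Slc25a1, Tomm34 and Sirt2. As background, Hexa encodes a subunit of beta-hexosaminidase and Gm2a its ganglioside activator protein, Ctsa, Ctsb, Ctsd and Ctsz are cathepsins, Npc2 binds cholesterol in the lysosome and Pld3 is a lysosomal nuclease. Lrpap1 encodes the chaperone of the LDL receptor family, to which Apoe binds.

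Cst7, which encodes the cathepsin inhibitor cystatin F and marks plaque-associated microglia, ranged from 456 to 1213 RPKM (median 994) on the low-numbered side. On the high-numbered side it ranged from 1527 to 4037 RPKM (median 2454), a log2 difference of 1.61 (SE 0.19). Library 22 held 769 RPKM. Glb1 ranged from 35.5 to 67.9 RPKM (median 47.9) and from 68.5 to 129 RPKM (median 91.9), a difference of 0.92 (SE 0.13). Its ranges were separated by less than 1 RPKM. Hexa ranged from 510 to 847 RPKM (median 718) and from 932 to 1643 RPKM (median 1257), a difference of 0.84 (SE 0.11). Ctsd, the most abundant of the 20, ranged from 10893 to 19244 RPKM and from 19286 to 33654 RPKM, a difference of 0.72 (SE 0.13). The gap in Apoe was the widest of these: the high-numbered median was 8.54 times the low-numbered one.

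**Figure D3:**
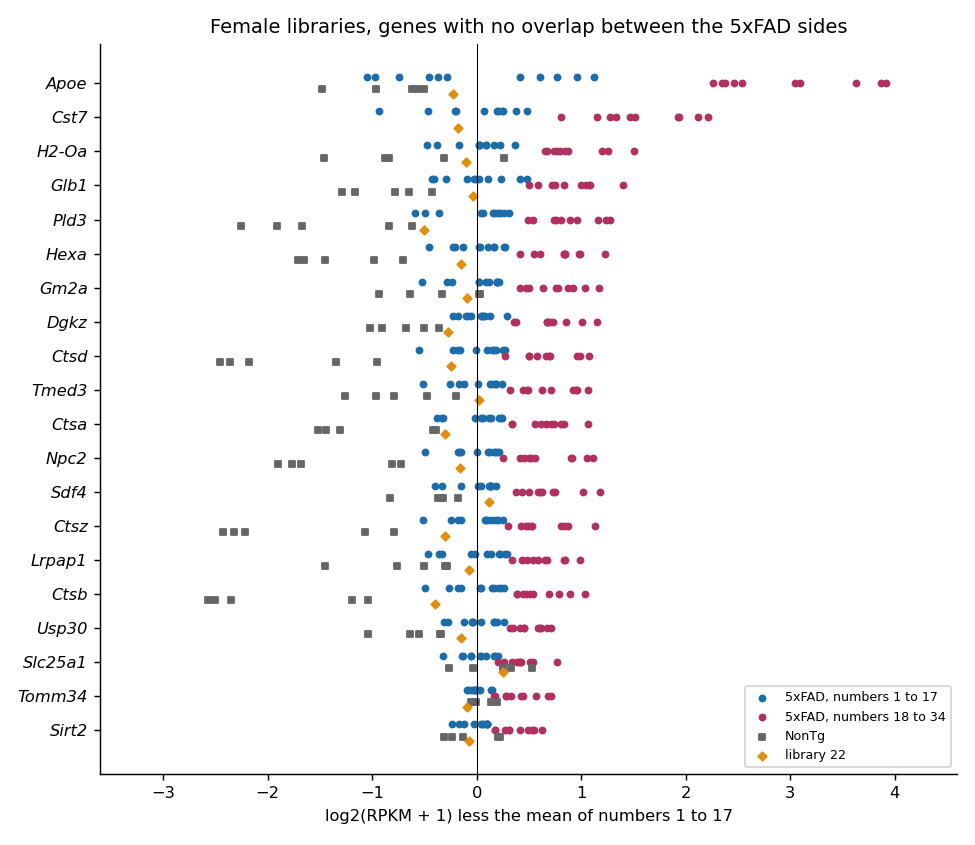
Log2(RPKM + 1) of the 20 genes with no overlap between the sides, less each gene's mean in low-numbered 5xFAD females. Each point is 1 female library and the groups are shown by colour. Apoe has the widest gap (low side up to 2275 RPKM, high side from 4991 RPKM before this scaling). For Cst7, 5 NonTg points lie left of the axis.

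The reverse case was Gm3646, a predicted gene with no described function, also named after its values were seen. It held 0.524 to 1.66 RPKM in the 11 low-numbered libraries, 0 in 9 of the 10 high-numbered ones and 0.226 RPKM in library 26. Library 22 held 1.59 RPKM, again within the low-numbered range. In NonTg females it was 1.02, 2.16 and 2.46 RPKM in libraries 4, 10 and 24 and 0 in libraries 28 and 30, so library 24 sat with the low-numbered ones. As its level in the high-numbered 5xFAD libraries was under the 1 RPKM that testing required, the gene was tested only through the libraries where it was higher, which favours such a gap.

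Some genes of the disease-associated state were higher on the high-numbered side, by smaller differences than Apoe. Of 9 genes of its Trem2-independent stage 1, 6 passed the threshold as higher and 0 as lower, with a median difference of 0.67 against -0.01 over all genes. Of all genes tested, 1.43% passed as higher and 0.247% as lower. Lyz2, the macrophage lysozyme, differed by 1.63 (SE 0.24), H2-D1, a class I histocompatibility gene, by 1.09 (SE 0.19), and Tyrobp by 0.90 (SE 0.19). Of 14 genes of the Trem2-dependent stage 2, 4 passed as higher and 0 as lower, with a median of 0.53. Besides Cst7, Itgax, which encodes the integrin CD11c, differed by 0.97 (SE 0.16) and Lpl, lipoprotein lipase, by 0.71 (SE 0.13). Trem2 ranged from 609 to 991 RPKM (median 836) and from 757 to 1831 RPKM (median 1105), a difference of 0.52 (SE 0.14) with overlapping ranges. Neutrophil markers, which a CD11b gate can also hold, summed to 124 to 3366 RPKM on the low-numbered side and 34.5 to 6176 RPKM on the high-numbered side, and none of the 10 was at 0 throughout. Their part in these differences was not tested.

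Of 30 lysosomal genes, 12 passed the threshold as higher and 0 as lower, with a median of 0.40. The shares of all genes tested were 1.43% and 0.247%. The 16 subunits of the vacuolar proton pump, which acidifies lysosomes, had 0 calls and a median of 0.12. Few sterol genes passed. Among 24 genes of lipid efflux and LXR targets, the usual transcriptional setting of Apoe, 2 passed as higher (Lpl and Npc2) and the median was 0.18, and the 20 cholesterol synthesis genes had 0 calls and a median of 0.08. Homeostatic microglial genes had 0 calls of 24 and a median of -0.03. P2ry12, the ADP receptor of resting microglia, differed by -0.29 (SE 0.23), Tmem119 by -0.19 (SE 0.31) and Cx3cr1, the fractalkine receptor, by -0.11 (SE 0.22).

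Antigen presentation and cytokine genes gave mixed counts, beside 1.43% of all genes passing as higher between the sides. Cd74, the invariant chain of class II molecules, ranged from 112 to 965 RPKM on the low-numbered side and from 273 to 1616 RPKM on the high-numbered side, a difference of 1.60 (SE 0.31), and 2 of 9 class II genes passed as higher (median 0.53). Tnf differed by 1.49 (SE 0.22), with 7.88 to 21.8 RPKM against 11.7 to 69.4 RPKM, and 4 of 20 inflammatory genes passed as higher (median 0.35). Type I interferon genes had 0 of 27 calls (median 0.20) and complement genes 0 of 11 (median 0.31). Of 25 immediate early and heat shock genes, which can be induced by tissue handling, 4 passed as higher (median 0.33). Set against the low-numbered side separately, libraries 18 to 23 had 11 of these 25 past the threshold as higher (median 0.84; 6.34% of all genes) and libraries 25 to 34 had 0 (median 0.05; 1.4% of all genes). The largest differences also held transcripts of myelin: Mobp differed by 2.27 (SE 0.84), from 0.459 to 190 RPKM against 12.5 to 629 RPKM, and Mbp by 1.82 (SE 0.77). The 10 oligodendrocyte markers had 0 calls and a median of 0.06, and their sum was 90.3 to 1194 RPKM in libraries 1 to 17 and 156 to 4086 RPKM in libraries 18 to 34. Their part in the differences was not tested. Hbb-b1, a haemoglobin gene of red cells, differed by -1.54 (SE 0.46), and the 5 tested erythroid genes had a median of -1.11 with 0 calls.

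The high-numbered side was not uniform. Libraries 18 to 23 held 5403 to 15730 RPKM of Apoe (median 12949) and libraries 25 to 34 held 4991 to 8614 RPKM (median 5762). The ranges overlapped, and the log2 difference (libraries 25 to 34 minus 18 to 23) was -0.84 (SE 0.33), not called by limma. These libraries were chosen by their Apoe level, so this value is a description. Set against the low-numbered side, Apoe was higher by 3.36 (SE 0.41) in libraries 18 to 23 and by 2.49 (SE 0.37) in libraries 25 to 34. Between the blocks limma called 0 of 14591 genes (0%), with 2361 (16.2%) at an unadjusted p under 0.05 and 0 calls by limma voom. The 5 libraries of the later block all lay above the 5 of the earlier one in 235 genes (1.61%) and all below in 411 (2.82%). Without library 34 limma called 257 genes. Depth separated these blocks completely, so block and depth cannot be told apart.

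Homeostatic genes had a negative median difference between the blocks, with 0 of 24 called. The 24 genes had a median difference of -0.92 (libraries 25 to 34 minus 18 to 23), beside -0.02 over all genes. Tmem119 was 306 to 868 RPKM (median 485) in libraries 18 to 23 and 153 to 413 RPKM (median 203) in libraries 25 to 34, a difference of -1.14 (SE 0.40; limma adjusted p = 0.231). Cx3cr1 was 774 to 1502 RPKM and 371 to 840 RPKM, a difference of -0.99 (SE 0.28; limma adjusted p = 0.174). Against the low-numbered side the same 24 genes had a median of 0.36 in libraries 18 to 23, with 7 past the threshold as higher and 0 as lower (6.34% and 1.04% of all genes), and of -0.50 in libraries 25 to 34, with 3 past it as lower (0.548% of all genes), so the median near 0 for the whole side combined blocks of opposite sign. Neutrophil markers summed to 34.5 to 1533 RPKM in libraries 18 to 23 and 1283 to 6176 RPKM in libraries 25 to 34, with a median difference of 1.61, and the 6 tested monocyte markers had a median difference of 1.15. Their part in the homeostatic values was not tested.

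Lysosomal and stage 1 genes showed little difference between the blocks, with medians of -0.03 and 0.04. Stage 2 genes had a median of 0.49. Clec7a, which encodes the receptor dectin-1, was 290 to 386 RPKM (median 301) in libraries 18 to 23 and 435 to 707 RPKM (median 577) in libraries 25 to 34, a difference of 0.81 (SE 0.14; limma adjusted p = 0.119) with no overlap. Its level in libraries 18 to 23 was within the 227 to 478 RPKM of the low-numbered side. Itgax and Lpl differed by 0.49 (SE 0.14) and 0.56 (SE 0.18), with limma adjusted p = 0.182 and 0.209. The smallest p-values went to Egln3, a prolyl hydroxylase gene induced by hypoxia, to Pcp4, Il1r1, Perp and Gadd45g, none of them called (limma adjusted p = 0.119 for each). Egln3 was 15.5 to 22.1 RPKM and 36.1 to 45.1 RPKM, a difference of 1.001 (SE 0.13). Gadd45g, a stress-response gene, went the other way, with 24.2 to 43.6 RPKM and 9.53 to 15.1 RPKM, a difference of -1.44 (SE 0.21). Immediate early and heat shock genes had a median of -0.56.

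**Figure D4:**
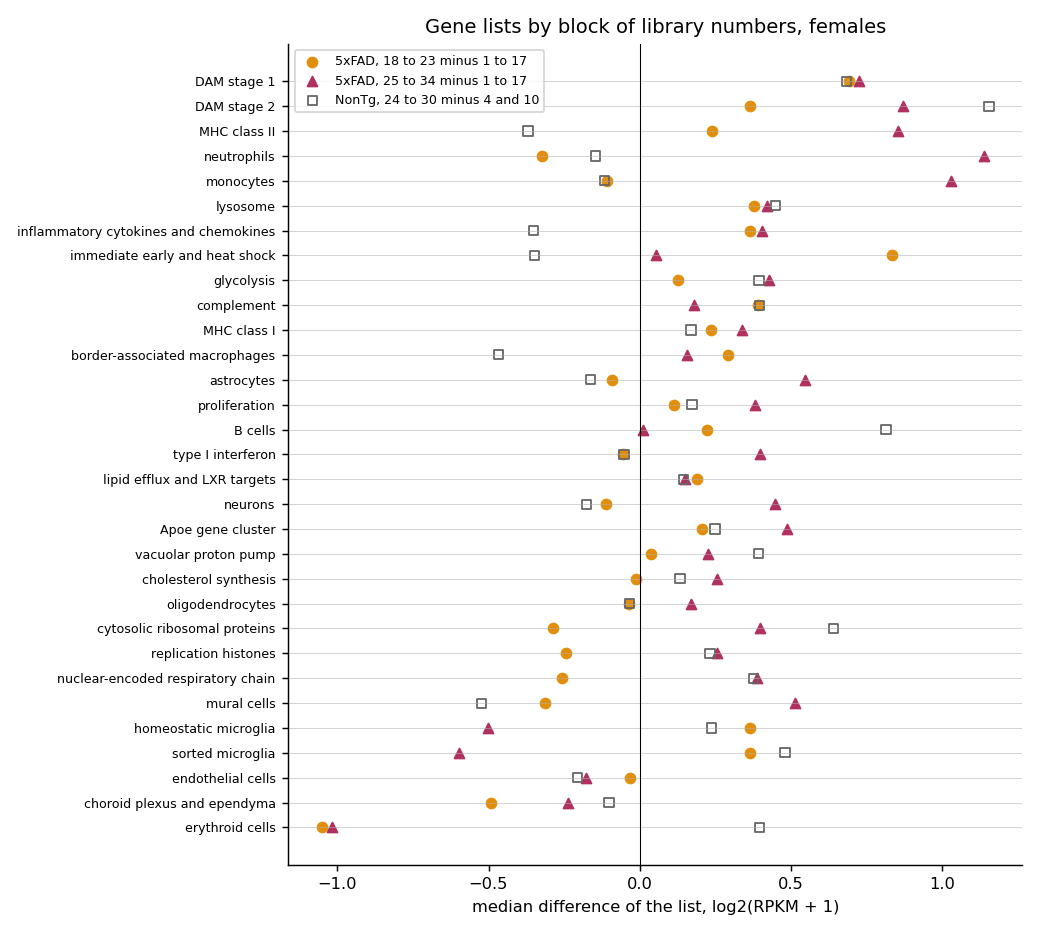
Median log2 difference of each gene list in libraries 18 to 23 and 25 to 34 against low-numbered 5xFAD females, and in high- against low-numbered NonTg females. Lysosomal and disease-associated lists lie right of 0 in all 3, and the homeostatic list lies at 0.36, -0.50 and 0.24.

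NonTg females gave values for the same lists, with 0 calls in each. Stage 1 genes had a median difference of 0.68 between high- and low-numbered NonTg libraries, stage 2 genes of 1.16 and lysosomal genes of 0.45, beside -0.01 over all genes. Complement genes had a median of 0.40 and class I genes of 0.17. Other lists with positive medians in 5xFAD females had negative ones here: class II genes -0.37, inflammatory genes -0.35, immediate early and heat shock genes -0.35 and type I interferon genes -0.05. Trem2 was 539 and 398 RPKM in libraries 28 and 30, 148 RPKM in library 24 and 161 and 198 RPKM in libraries 4 and 10. Clec7a was 28.9 and 43.0 RPKM in libraries 28 and 30 and 3.38 to 5.66 RPKM in the other 3. Cst7 was 43.0 and 35.5 RPKM in libraries 28 and 30 and 0.738 to 1.17 RPKM in the others, all far under the 456 RPKM of the lowest 5xFAD female. H2-D1 was 627 and 633 RPKM in libraries 28 and 30, under the 858 RPKM of library 4 and the 760 RPKM of library 24. Apoe had no such split either, with 374 and 735 RPKM in libraries 28 and 30. Lgals3, which encodes galectin-3, was among the 5 genes with the smallest p-values, with a difference of 2.39 (SE 0.65; limma adjusted p = 0.991).

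Trem2 genotype had no called effect, with or without number side as a term. Apoe differed by 0.04 (SE 0.41) between T96K/T96K and Trem2+/+ and by 0.14 (SE 0.40) between T96K/+ and Trem2+/+. Without the side term the same differences were 0.74 (SE 0.89) and 0.63 (SE 0.87), with wider SEs. As the side was drawn on Apoe, the side term had to narrow them, and nothing is read from that. Leaving out single libraries moved the T96K/T96K value between -0.13 and 0.30 and the T96K/+ value between -0.045 and 0.38. Limma called 0 genes in either comparison (0%), with 673 (4.61%) and 567 (3.89%) at an unadjusted p under 0.05, and limma voom called 0. Among the smallest p-values for T96K/T96K, Lox, a collagen cross-linking enzyme gene, differed by -1.02 and Gadd45b by -0.88 (limma adjusted p = 0.915). For T96K/+, Il1b differed by -1.02 and Lpl by -0.58 (limma adjusted p = 0.995). The genotype effect on Apoe differed between the sides by -0.74 (SE 0.83) for T96K/T96K and by -0.22 (SE 0.80) for T96K/+. No gene passed in these interactions (0%), with 240 (1.64%) and 254 (1.74%) at an unadjusted p under 0.05 and 0 calls by limma voom.

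The genes most like Apoe across the 21 females, by Pearson r of log2(RPKM + 1), were Glb1 (r = 0.940), Dlgap4, H2-Oa, Hexa, Lgals3bp and Os9 (r = 0.918). The least like were Gnpda2 (r = -0.839), Rap1a and Cops3. The division itself sets much of these values, and the genes were chosen on them, so the values within each side are a description too. Glb1 had r = 0.814 over the 11 low-numbered and 0.672 over the 10 high-numbered libraries. Hexa had r = 0.555 and 0.746, and Cops3, which encodes a subunit of the COP9 signalosome, had -0.376 and -0.240.

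Males offered libraries that the choice of these 9 genes had not used. Over the 14 males numbered 1 to 15, Apoe ranged from 1276 to 7960 RPKM, and the 3 highest values (4454, 6151 and 7960 RPKM) belonged to 5xFAD;Trem2+/+ males, and the other library of that genotype held 1813 RPKM. Glb1 followed Apoe with r = 0.900 (two-sided permutation p = 1e-05, the smallest that 100000 resamples can give, adjusted over 9 genes 9e-05) and Spearman's rho = 0.903 (permutation p = 3e-05). Without the 2 libraries farthest from the median of Apoe, r was 0.813, and with genotype means removed it was 0.786. All 6 genes most like Apoe in females had r of at least 0.784 in males, and the 3 least like had r between -0.747 and -0.865, each with an adjusted permutation p of at most 0.00198. The resampling did not hold genotype fixed, so these p-values include differences between genotypes. With genotype means removed, r of the 6 ran from 0.543 (Lgals3bp) to 0.786 (Glb1), and Cops3 had -0.535. For Gnpda2, r fell to -0.588 without those 2 libraries (permutation p = 0.0433) and to -0.330 with genotype means removed. Rap1a, a small GTPase gene, kept -0.844 and -0.756.

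**Figure D5:**
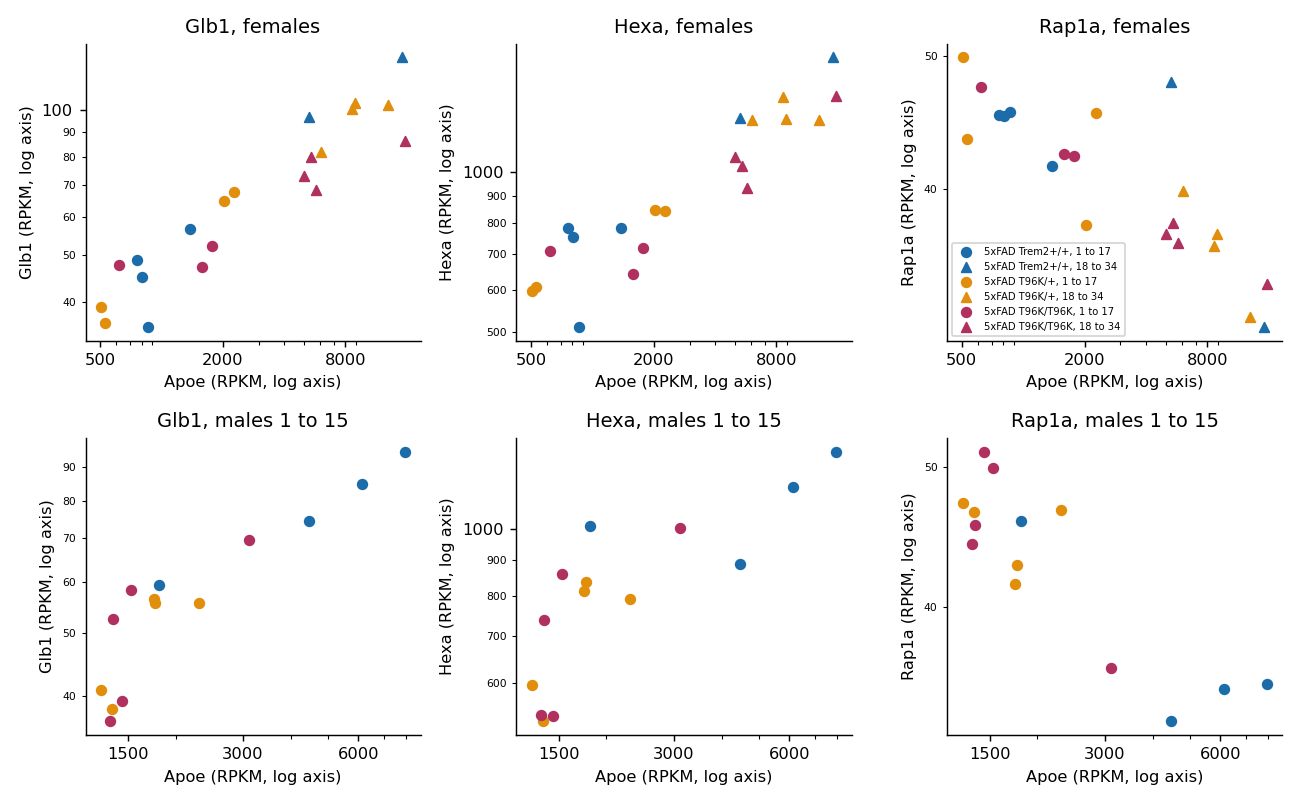
Glb1, Hexa and Rap1a against Apoe, both on log axes in RPKM, in the 21 5xFAD females (top) and the 14 males numbered 1 to 15 (bottom), each point 1 library. Glb1 and Hexa climb with Apoe in both sexes (r = 0.900 and 0.805 in males) and Rap1a declines (r = -0.865).

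The wider set of genes was also compared with Apoe in males. Of the 207 genes other than Apoe that were higher on the high-numbered side of females, 205 were tested in males. Their median r with Apoe there was 0.640, and 148 of 205 (72.2%) had r above 0.5, against a median of 0.01 and 14.3% over all 13635 genes compared. With genotype means removed the median was 0.470. For 35 of the 36 genes that were lower in females, those tested in males, the median was -0.368. These correlations share libraries, depth and cell mixture, and are a description. Ribosomal protein genes, which differed by a median of 0.05 in females, had a median r of -0.578 with Apoe in males, and lysosomal genes 0.555.

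Library 22 was also set against the sides, as a description only. Its T96K/+ genotype is taken from its label, and its Y-linked and Xist levels did not match the sex on that label. The genes were called on the libraries that library 22 is compared with, by a division drawn on Apoe. Its own Apoe lay within the low-numbered range, so the likeness below was favoured by that choice. It was nearer to the mean of the low-numbered than of the high-numbered 5xFAD;Trem2T96K/+ libraries in 187 of the 207 genes (90.3%) called higher on the high-numbered side, against 55.6% of all tested genes. For the 36 genes called lower it was nearer to the low-numbered mean in 17 (47.2%).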

How the data were processed

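RNA was measured in 27 female and 17 male libraries. The RPKM values were made by the authors and deposited as 2 tables of 37583 genes, scaled separately; per the submitters' processing notes STAR, HTSeq and edgeR were used, and per the labels reads were aligned to mm9. Versions, and the steps behind the scaling, are not given in the sources used here. Library numbers come from the labels' sample names.

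Whole reads were recovered from the RPKM steps (100% of values within 0.01 of a whole read), which gives the depths and scaling factors above. A gene was tested where 5 or more libraries of its table reached 1 RPKM. Differences of log2(RPKM + 1) were fitted with limma 3.58.1 in R 4.3.3 (trend and robust variance, Benjamini-Hochberg adjustment over all tested genes, threshold 0.05), and a fold change on this scale understates low genes. The 21 females were fitted with genotype as a covariate and NonTg females in a model of 26 female libraries. Single values had exact permutation tests, and correlations 100000 resamples (Python 3.11.15, scipy 1.17.1). Other tools were numpy 2.4.6, pandas 2.3.3 and matplotlib 3.10.9. The fits were tested on simulated data.

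The members, gene lists and tests were chosen with earlier results of these data known. Named genes were the Apoe cluster, set markers of the disease-associated and homeostatic states, the 10 largest differences each way and the genes most and least like Apoe among those with a mean of at least 5 RPKM, up to 5 genes each way per tested comparison, and the 3 most abundant members of each list. No 2 libraries agreed within sampling noise. Reads were counted without a stated strand setting, and genes with close copies, such as the haemoglobin, H2 and Gm3646 genes, are uncertain.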

Additional observations from a re-analysis of the deposited data

Results flagged for a closer look

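Of 108 groups of 4 to 10 libraries examined, 6 held a library far from the rest by Dixon's criterion, and chance marks about 1 in 20. Apoe was 15730 RPKM in library 21, against 4991 to 5762 RPKM in the other 3 high-numbered 5xFAD;Trem2T96K/T96K females. In males 1 to 15 of the same genotype it was 3110 RPKM in library 15, against 1350 to 1534 RPKM in the other 4. Trem2 was 508.3 RPKM in male library 6, against 787.9 to 984.8 RPKM in the other 5 5xFAD;Trem2T96K/T96K males. Glb1 was 82 RPKM in library 33, against 100.6 to 103.5 RPKM in the other 3 high-numbered 5xFAD;Trem2T96K/+ females. Hexa was 1382 RPKM in library 26, against 1252 to 1259 RPKM in the other 3 of that group. Hexa was 509.8 RPKM in library 14, against 753.3 to 785.1 RPKM in the other 3 low-numbered 5xFAD;Trem2+/+ females. Library 22, labelled female and on neither side of the division, held 29.28 RPKM summed over 4 Y-linked genes, within the 25.7 to 37.9 RPKM of the 17 males.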

How the results depend on the processing

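No paired analysis was possible because each library number occurs once in the female table, so the groups compared share no number. The planned edgeR and DESeq2 fits were not run, because the deposited values are RPKM; limma voom on recovered reads was chosen after seeing the data, as was the restriction of the male correlations to numbers 1 to 15. For Glb1 the male r was 0.900 over 14 and 0.904 over 17 libraries. Against 244 calls between the sides of the 5xFAD females, there were 132 with no filter, 42 with library 22 on the high side (36 higher), 1077 for libraries 18 to 23 alone (925 higher) and 413 with the division between 23 and 25, where Apoe differed by 1.41. Under quantile normalization 74.5% of calls were higher, against 85.2%, and Apoe differed by 2.45, against 2.94. With library 22 on the high side Apoe differed by 2.67. Single libraries left out gave 111 to 290 calls and 2.77 to 3.07 for Apoe. In NonTg females a pseudocount of 0.1 gave 1 call and no filter 25, and single libraries left out gave 0 to 16 calls and -0.30 to 0.21 for Apoe. Quantile normalization gave -0.47 for Apoe there. In males voom gave 69 calls, and single libraries left out 9 to 27 calls and -0.75 to 0.66. Between libraries 25 to 34 and 18 to 23, no filter gave 8 calls, no covariate 13, and single libraries left out 0 to 257 and -1.09 to -0.62. No filter gave 2 calls in each interaction. Single libraries left out gave 0 calls for both genotype terms and both interactions, with Apoe at -0.13 to 0.30 (T96K/T96K), -0.045 to 0.38 (T96K/+), -1.50 to 0.013 and -0.98 to 0.53 (their interactions); quantile normalization gave 0.086 for the T96K/+ interaction. The cause of these shifts was not tested. Depth limits low genes most on the low-numbered side.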

Other observations

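Housekeeping and other cell type lists described the division of the 5xFAD females as follows, each with a median log2 difference beside -0.01 over all genes. Their counts stand beside 1.43% of all genes called higher, and 1 gene of a list can be near that share. Glycolysis genes had 1 of 15 called higher (median 0.32), proliferation genes 1 of 18 (median 0.21), class I histocompatibility genes 1 of 12 (median 0.28) and cytosolic ribosomal protein genes 1 of 50 (median 0.05). Nuclear-encoded respiratory chain genes had 0 of 34 called (median 0.02). Between libraries 25 to 34 and 18 to 23 the ribosomal and respiratory medians were 0.60 and 0.61, with 0 genes called. The 13 mitochondrially encoded genes were not analysed here.

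Among markers of other brain cells, 0 were called in the division of the 5xFAD females. Median differences were -0.19 for 8 endothelial, -0.01 for 6 mural, 0.25 for 10 astrocyte, 0.17 for 6 neuronal, 0.28 for 2 oligodendrocyte precursor and -0.21 for 7 choroid plexus and ependymal markers. For blood and border cells they were 0.26 for 10 border-associated macrophage, 0.41 for 6 monocyte, 0.45 for 10 neutrophil, 0.20 for 4 B cell and 0.08 for 1 T and NK cell marker. Some of these medians combined blocks of opposite sign. Against the low-numbered side, neutrophil medians were -0.32 in libraries 18 to 23 and 1.14 in libraries 25 to 34, and monocyte medians -0.11 and 1.03. Mural, astrocyte, neuronal and oligodendrocyte precursor medians were likewise negative in the earlier block and positive in the later one. Among signs of RNA quality, 2 long nuclear RNAs went opposite ways, by -0.22 and 0.87 (median 0.33), and 9 replication histone genes had a median of 0.05.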
